A study of Sus scrofa with 48 samples.

Results

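The hepatic program of de novo lipogenesis was examined in pig liver through 10 genes: the regulators SREBF1 and MLXIPL, the enzymes ACLY, ACACA, FASN, SCD, ELOVL6 and ME1, and the glycerolipid genes GPAM and PNPLA3. Probes were taken where the array's own gene name, or the transcript accession printed with it, was that of a member. The rule found 36 probes of 60305 on the array, and all 36 were among the 45236 probes that passed the filter on signal, so that each of the 10 genes had at least 1 tested probe. The livers came from 48 castrated male pigs of 2 lines divergently selected over 8 generations for residual feed intake (RFI), the feed eaten beyond that predicted from daily gain and backfat thickness. Pigs of the low RFI line (the efficient one, n = 24) and of the high RFI line (n = 24) were fed from 74 days of age, for 58 days, either a diet rich in fat and fiber (HF) or a diet poor in both (LF). This gave 4 groups of 12 pigs: low RFI fed HF, low RFI fed LF, high RFI fed HF and high RFI fed LF. Samples were taken 2 h after the last meal, and each pig gave 1 liver sample on 1 single-colour array. Fat and fiber were changed together, so their parts in a diet effect cannot be told apart.

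De novo lipogenesis turns surplus carbohydrate into fatty acids. ACLY, the ATP citrate lyase, splits citrate exported from mitochondria into cytosolic acetyl-CoA, ACACA carboxylates it to malonyl-CoA, and FASN, the fatty acid synthase, builds palmitate from both, with NADPH supplied in part by the malic enzyme ME1. ELOVL6 lengthens palmitate to stearate, SCD introduces the double bond that gives oleate, GPAM starts glycerolipid assembly by acylating glycerol-3-phosphate, and PNPLA3 is a lipid droplet protein. SREBF1 encodes the SREBP-1 factors that respond to insulin, and MLXIPL encodes ChREBP, which responds to glucose; both activate most of these genes in liver. In pigs, adipose tissue rather than liver is the main site of fatty acid synthesis.

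The probes are 60-base oligonucleotides whose sequences stand in the deposited files, and a few of them are shown here because the results turn on which probe was read. SREBF1 had 3 probes that did not give the same picture; the probe with the strongest signal and the probe with the clear diet effect are printed with G and C in capitals.
SREBF1 A_72_P326973: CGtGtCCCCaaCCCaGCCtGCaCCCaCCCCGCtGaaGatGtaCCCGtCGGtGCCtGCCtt
SREBF1 O13456: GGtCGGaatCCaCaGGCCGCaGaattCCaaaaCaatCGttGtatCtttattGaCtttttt
G and C made up 66.67% of the bases of A_72_P326973, which placed it at percentile 99.60 of all tested probes, and 81.67% of those of the SREBF1 probe A_72_P223967, which is not printed. O13456 lay at percentile 45.33, close to the median of 41.67% over all tested probes.

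ACACA was the member for which each probe passed the test for diet. Its 4 probes are shown with the hexamer AATAAA, the usual polyadenylation signal, in capitals where it occurs on the printed strand.
ACACA A_72_P079111: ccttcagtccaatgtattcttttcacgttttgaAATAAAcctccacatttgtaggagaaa
ACACA A_72_P442314: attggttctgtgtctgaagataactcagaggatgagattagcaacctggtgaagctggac
ACACA A_72_P305844: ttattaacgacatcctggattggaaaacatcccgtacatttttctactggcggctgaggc
ACACA O3684: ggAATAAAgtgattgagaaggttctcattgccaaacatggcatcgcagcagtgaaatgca
These 4 sequences shared no long stretch, and their positions on the transcript were not mapped. AATAAA occurred on the printed strand in 6 of the 36 member probes and in 11.4% of all tested probes, while its reverse complement TTTATT occurred in 1 member probe, SREBF1 O13456, and in 4.37% of all tested probes. A match to such a short word is only a description of the probe.

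Several probes of FASN, SCD and ME1 were not independent readings. The 36 probes held 34 distinct sequences: the FASN probes A_72_P338038 and A_72_P647699 were identical, as were the ME1 probes O15000 and A_72_P444471. Among the 11 SCD probes, 3 shared the stretch of 27 bases shown in capitals.
SCD O15027: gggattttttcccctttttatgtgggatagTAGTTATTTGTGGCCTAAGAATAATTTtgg
SCD A_72_P564094: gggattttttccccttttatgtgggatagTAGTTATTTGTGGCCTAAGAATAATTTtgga
SCD A_72_P578058: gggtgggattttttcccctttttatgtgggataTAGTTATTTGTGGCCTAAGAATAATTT
The FASN probe O15017 was well above background on 38 arrays, against 48 for the other FASN probes.

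Values are log2 processed intensities from which the median of the array's tested probes was taken away, so a value of 1 is a doubling over that median. Levels are comparable between pigs for one probe but not between probes. For each gene the probe with the highest mean signal represents it, and the other probes are given beside it. A probe was called different when limma gave P under 0.01 and the fold change (FC) was over 1.1; P-BH is the Benjamini-Hochberg value over all tested probes. The median intensity of an array lay between 53.04 and 126.4, between 65.8% and 77.2% of its spots were well above background, and no spot was saturated. The 6 slides each held 2 arrays of each group, and they were scanned on 2 days with 24 arrays each, so neither slide nor scan day was confounded with line or diet. In this bulk tissue, fewer cells of a type and less RNA per cell cannot be told apart.

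The first comparison asked whether selection for RFI moved the lipogenic genes. None of the 36 member probes was called between lines: 0 were over-expressed in low RFI pigs, where 3.42% of all tested probes were, and 0 were under-expressed, where 3.49% were. At an unadjusted P under 0.05 limma gave 1 member probe, against 14.7% of all tested probes, and at a P-BH under 5% it gave 0, against 3.93%. The median log2 FC of the 10 representative probes was -0.09, against 0.01 for all 10469 genes tested. By gene, 3.41% of all genes were called higher and 3.39% lower in low RFI pigs, and no member was in either class.

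For FASN, the levels in low RFI pigs ran from 6.0 over a median of 8.35 to 9.77, and in high RFI pigs from 6.07 over 8.11 to 9.37. The lines overlapped over nearly their whole range, and the mean difference was 0.00 ± 0.24 (SE, n = 24 per line, limma P = 0.990), with a 95% confidence interval from -0.49 to 0.49. ACACA ran from 3.37 to 6.08 in low RFI and from 3.30 to 5.67 in high RFI pigs, with a difference of 0.09 ± 0.17 (limma P = 0.577). SCD ran from 5.75 to 9.59 and from 6.16 to 9.27, with a difference of -0.12 ± 0.24 (limma P = 0.619). For these 3 enzymes of fatty acid synthesis and desaturation the lines overlapped over most of their range; a P above the threshold does not show that the lines were alike.

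The regulators were measured with the least spread. The line difference was 0.05 ± 0.06 for SREBF1 A_72_P326973 (limma P = 0.383, interval from -0.06 to 0.16) and -0.05 ± 0.08 for MLXIPL (limma P = 0.510, interval from -0.21 to 0.10). The SREBF1 probe O13456 had a wider interval, from -0.10 to 0.33, with a difference of 0.11 ± 0.11 (limma P = 0.304). A_72_P223967 gave 0.04 ± 0.07 (limma P = 0.600). The widest interval was that of PNPLA3, whose difference of -0.30 ± 0.47 (limma P = 0.522) had an interval from -1.24 to 0.64. ACLY (0.06, limma P = 0.727), GPAM (-0.19, limma P = 0.314) and ME1 (-0.13, limma P = 0.505) did not pass the test either.

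The probes of a gene did not always share a sign. For ELOVL6, A_72_P127361 gave -0.28 ± 0.23 (limma P = 0.225) and O1689 gave 0.27 ± 0.16 (limma P = 0.0991), although their levels went together over pigs with r = 0.87. The sign of both also changed with scan day, a difference that was not tested. A_72_P127361 gave -0.80 (limma P = 0.0208) on day 1 and 0.24 (limma P = 0.389) on day 2. O1689 gave -0.09 (limma P = 0.696) and 0.62 (limma P = 0.00616). For ME1, the probe A_72_P306288 gave -0.49 ± 0.21 (limma P = 0.0215, P-BH not under 5%), more than the -0.13 and -0.16 of the identical pair. The count of called probes became 1 on scan day 2 alone, by ELOVL6 O1689. It also became 1 when either pig 12 of the low RFI HF group or pig 3 of the high RFI LF group was left out.

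**Figure D1:**
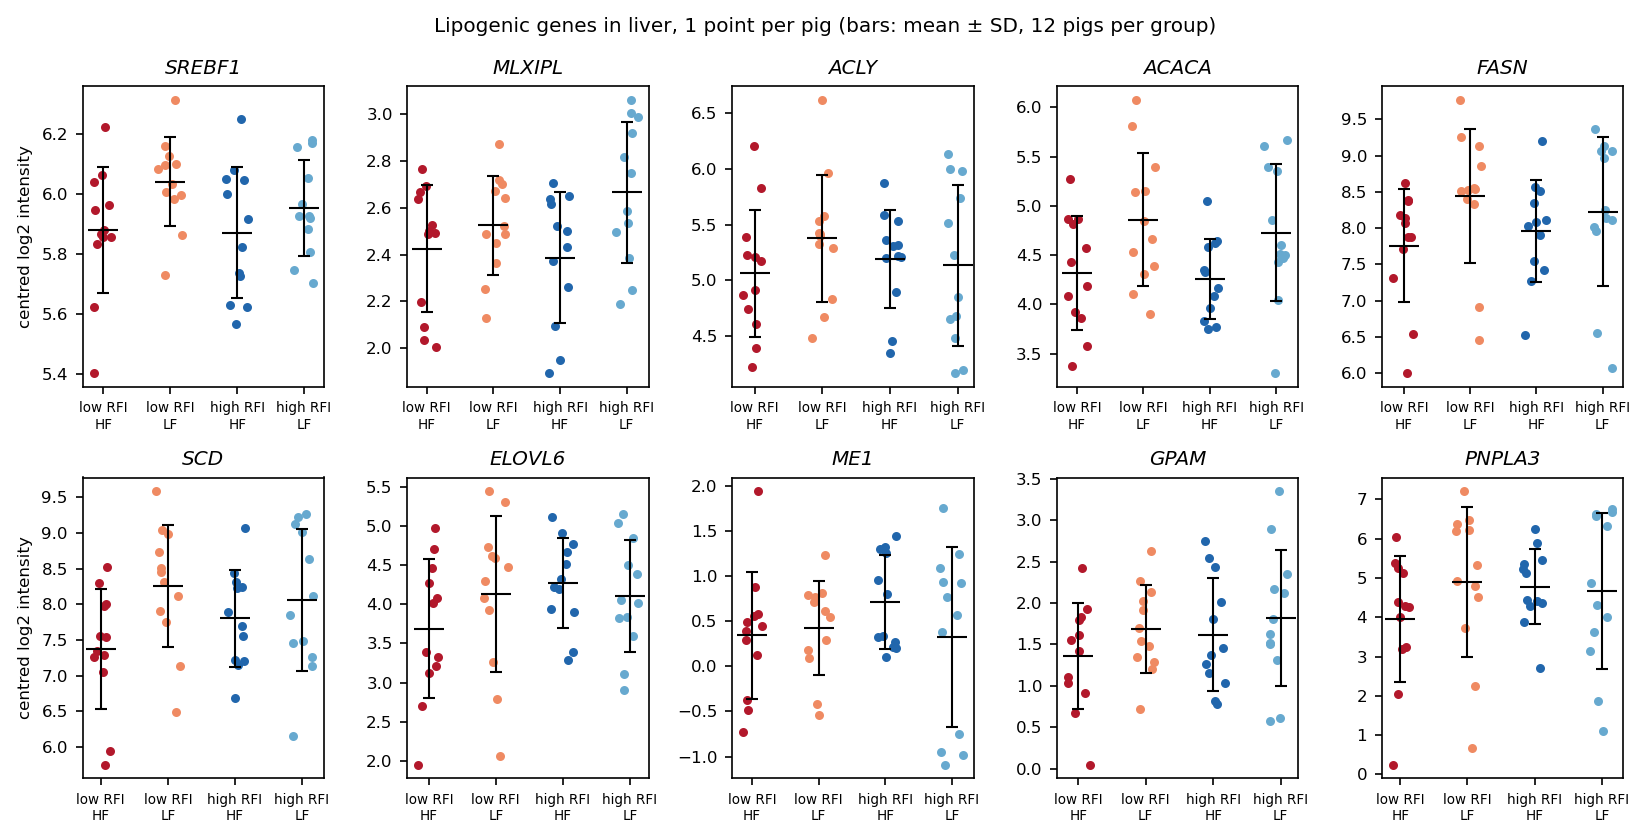
Centred log2 intensity of the representative probe of each of the 10 genes, 1 point per pig, in the 4 groups of 12 pigs, with bars for the mean and SD. The groups overlap for every gene, and PNPLA3 spans a 124.5-fold range over the 48 pigs.

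The second comparison asked how the diet acted on the same genes. ACACA, the enzyme that makes malonyl-CoA, was under-expressed in pigs fed HF by each of its 4 probes, and SREBF1 was under-expressed by 1 of its 3. These were the 5 member probes called lower, of 36, where 2.54% of all tested probes were called lower; 0 member probes were called higher, where 2.07% were. SCD, FASN and MLXIPL were lower in HF in their means but did not pass limma P under 0.01. By representative probe, the intervals of FASN, ACLY, ELOVL6, ME1, GPAM and PNPLA3 held 0. At P-BH under 5%, 1 member probe remained, SREBF1 O13456, where 0.455% of all tested probes passed.

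For ACACA (A_72_P079111), the levels in HF pigs ran from 3.37 over a median of 4.26 to 5.28, and those in LF pigs from 3.30 over 4.63 to 6.08. The groups overlapped, and 18 of 24 HF pigs were below the LF median. The difference was -0.50 ± 0.17 (SE, n = 24 per diet, FC 1.42, limma P = 0.00447, P-BH = 0.149). The probe A_72_P442314 gave -0.53 (FC 1.44, limma P = 0.00201), A_72_P305844 gave -0.65 (FC 1.57, limma P = 0.00767) and O3684 gave -0.64 (FC 1.55, limma P = 0.000327, P-BH = 0.0562). Over pigs, the 4 probes correlated with r from 0.62 to 0.93. All 4 had negative differences on each scan day, from -0.67 to -0.45 on day 1 and from -0.69 to -0.53 on day 2, although with 24 pigs a day only O3684 passed P under 0.01, on day 1 (limma P = 0.00838). The call of A_72_P305844 was lost when any of 21 pigs was left out, while the calls of the other 3 ACACA probes were kept without any single pig.

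For SREBF1 O13456, the levels in HF pigs ran from 1.42 over 1.88 to 2.47, and those in LF pigs from 1.74 over 2.57 to 3.82, so that the diets overlapped between 1.74 and 2.47. The difference of -0.65 ± 0.11 (SE, n = 24 per diet) was a FC of 1.56 (limma P = 2.27e-07, P-BH = 0.00158). It was -0.66 on scan day 1 (limma P = 3.5e-05) and -0.63 on scan day 2 (limma P = 0.000566), and it lay between -0.68 and -0.59 when any single pig was left out. The other SREBF1 probes gave much less: -0.12 ± 0.06 for A_72_P326973 (limma P = 0.0313), which has the strongest signal, and -0.13 ± 0.07 for A_72_P223967 (limma P = 0.0690). The size of the SREBF1 effect thus rested on the probe read.

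The SREBF1 probes also disagreed from pig to pig. With group means removed, A_72_P326973 and A_72_P223967 correlated with each other (r = 0.76), but O13456 correlated with neither (r = 0.09 and r = 0.01, over 48 pigs). The GC-rich pair went down as the overall intensity of the array went up, with r = -0.52 for A_72_P326973 and r = -0.62 for A_72_P223967, against r = -0.09 for O13456. The part of array intensity in their diet effects was not tested. With array intensity partialled out, r of A_72_P326973 was 0.18 with FASN (0.18 before) and 0.10 with ACACA (0.06 before). The median array intensity was 78.575 and 74.29 in the low and high RFI pigs fed HF, and 71.235 and 69.265 in those fed LF. The GC-rich pair was annotated to the same reference transcript and O13456 to a different one, and the strand that O13456 reads was not tested. Which of the probes follows the SREBF1 transcript could not be read from these files.

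**Figure D2:**
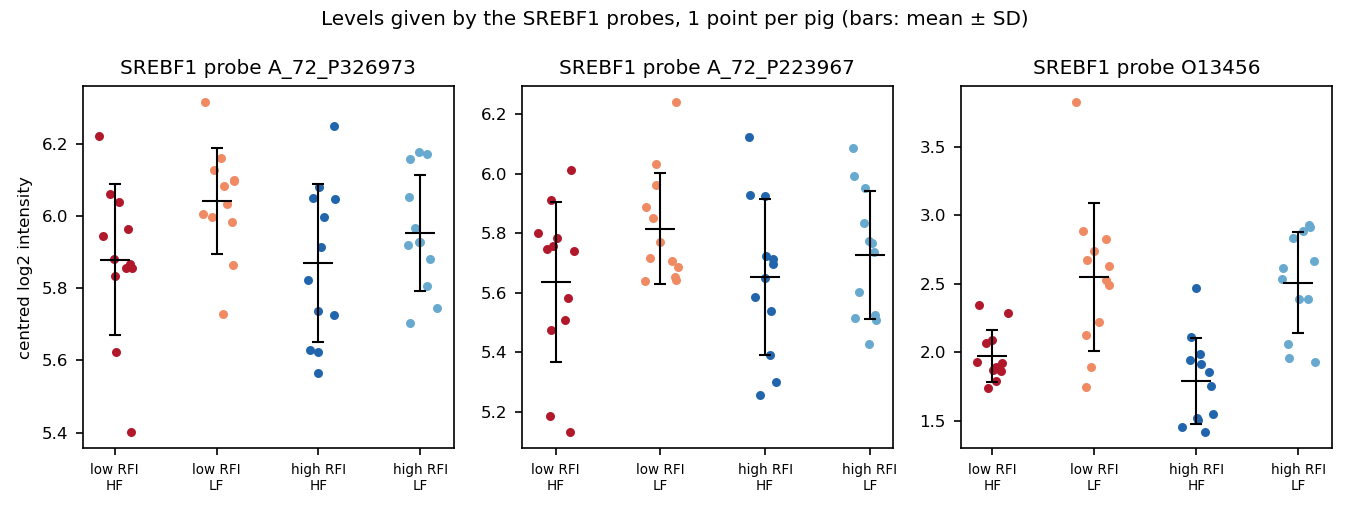
Centred log2 intensity of the 3 SREBF1 probes, 1 point per pig, by group (12 pigs each), with mean and SD. For O13456 the HF groups have means of 1.97 and 1.79 against 2.55 and 2.51 in the LF groups, while for the other probes the groups lie over each other.

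SCD and FASN, the members with the most probes, did not pass P under 0.01. For SCD (A_72_P088586), HF pigs ran from 5.75 over 7.56 to 9.06 and LF pigs from 6.16 over 8.22 to 9.59, with 17 of 24 HF pigs below the LF median and a difference of -0.56 ± 0.24 (limma P = 0.0226). All 11 SCD probes gave -0.56 to -0.62 with P from 0.0178 to 0.0389, and correlated over pigs with r of at least 0.94, so that they count as 1 reading of 1 transcript. For FASN (A_72_P223177), HF pigs ran from 6.0 over 8.05 to 9.21 and LF pigs from 6.07 over 8.51 to 9.77, with 20 of 24 HF pigs below the LF median and a difference of -0.47 ± 0.24 (limma P = 0.0598). The other 4 FASN probes gave -0.59 to -0.72, with limma P from 0.0136 to 0.0368. They are not 4 readings, since A_72_P338038 and A_72_P647699 are identical. O15017 equalled the strand opposite to A_72_P175196 at 58 of 60 positions, and which of them reads the FASN transcript was not tested.

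MLXIPL, the ChREBP gene, was at -0.19 ± 0.08 (limma P = 0.0172), with 16 of 24 HF pigs below the LF median. ACLY was at -0.13 ± 0.16 (limma P = 0.441), GPAM at -0.26 ± 0.19 (limma P = 0.175) and ELOVL6 at -0.14 ± 0.23 (limma P = 0.540). PNPLA3 was at -0.41 ± 0.47 (limma P = 0.385), with an interval from -1.35 to 0.53. ME1 was the member with a positive value, 0.15 ± 0.20 (limma P = 0.452). In all, 33 of 36 member probes were below 0, the exceptions above 0 being the 3 ME1 probes. An unadjusted limma P under 0.05 was given by 22 member probes, where 14.4% of all tested probes had one. These 22 include every SCD probe and are not independent readings. Read by gene, 9 of 10 representative probes were below 0 and 4 had a P under 0.05. By representative probe 1 of 10 members was called lower, where 2.17% of all genes were, and 0 were called higher, where 2.02% were. The median log2 FC of the members was -0.23, against -0.02 for all genes.

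The count of 5 depended on single pigs. It was 17 without pig 9 of the high RFI LF group, 15 without pig 8 of the low RFI LF group, 9 without pig 3 of the high RFI LF group, 8 without pig 9 of the low RFI LF group and 8 without pig 9 of the high RFI HF group, and 2 and 1 on scan days 1 and 2 alone.

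**Figure D3:**
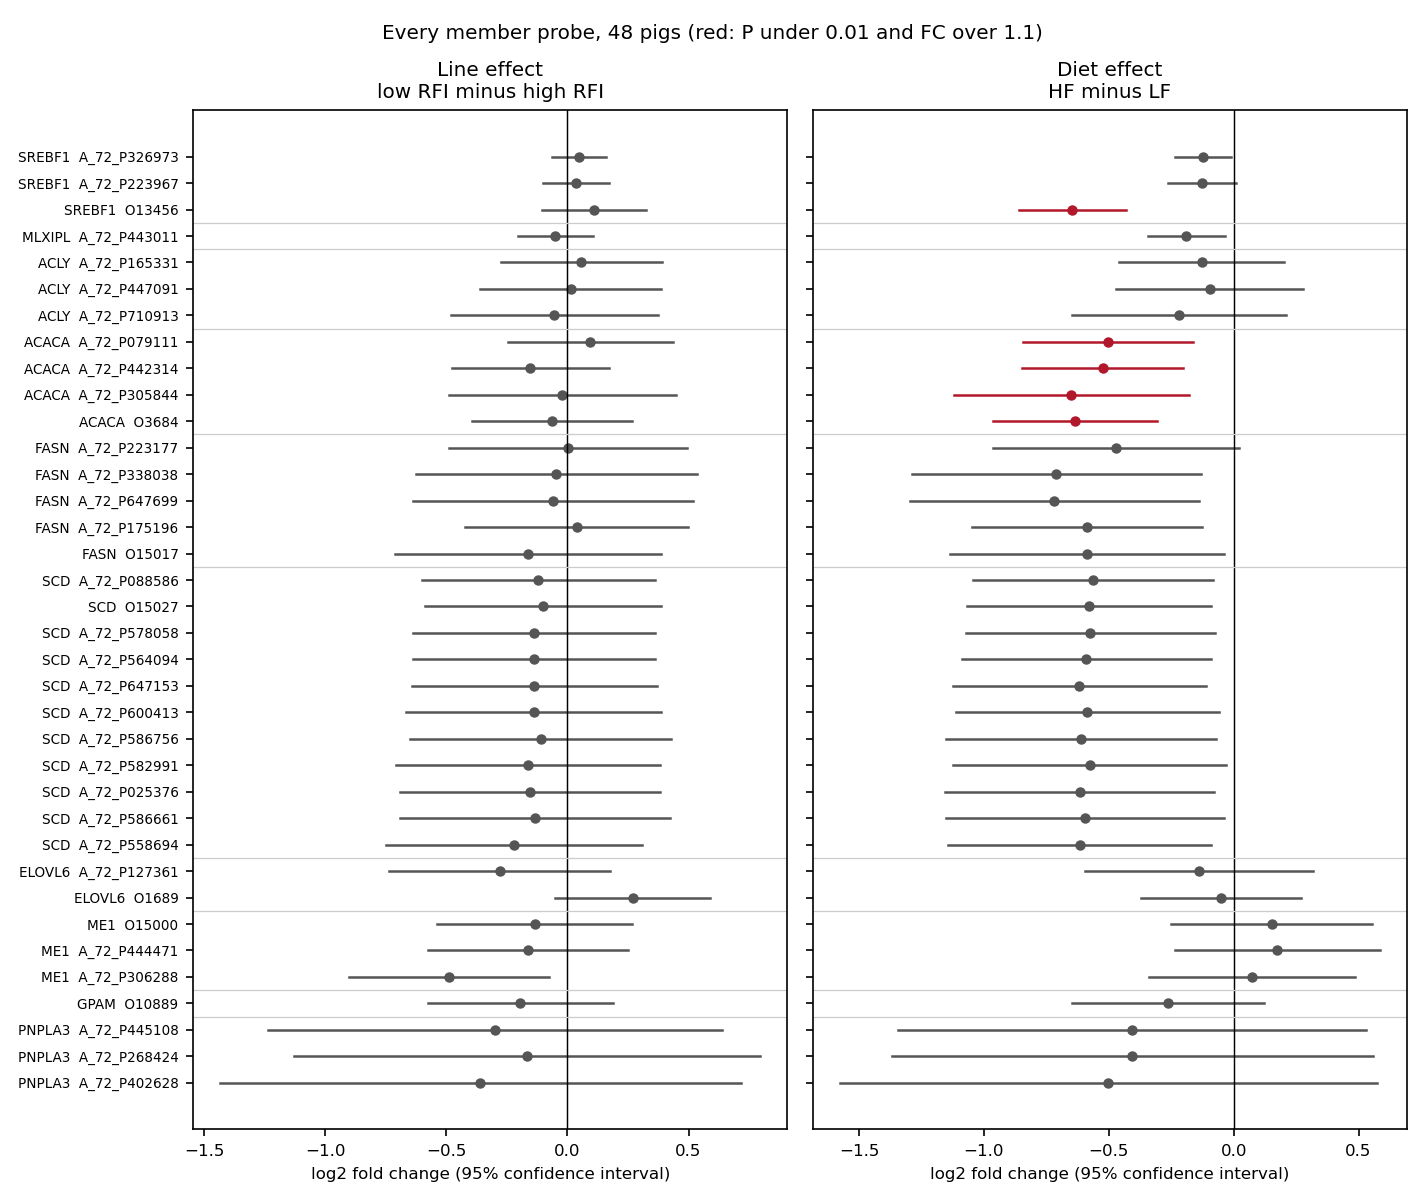
Log2 fold change with its 95% confidence interval for the line effect (left, low minus high RFI) and the diet effect (right, HF minus LF) of all 36 member probes, with red for P under 0.01 and FC over 1.1. No probe is red for line; the 4 ACACA probes and SREBF1 O13456 are red for diet, and the ME1 probes alone lie above 0.

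Within the low RFI line the HF diet went with lower values of all 36 member probes, which are not independent, and of all 10 representative probes. Of the 36, 4 were called: SREBF1 O13456, ACACA A_72_P442314 and O3684, and SCD A_72_P647153. Of all tested probes 2.68% were called there. In the high RFI line 26 of 36 probes, and 6 of 10 representative probes, were below 0. There 1 was called, SREBF1 O13456, where 1.58% of all tested probes were. For SCD (A_72_P088586) the diet effect was -0.87 (limma P = 0.0130) in low RFI pigs and -0.25 (limma P = 0.456) in high RFI pigs; for FASN it was -0.68 (limma P = 0.0549) and -0.26 (limma P = 0.452). ACACA (A_72_P079111) gave -0.54 (limma P = 0.0280) and -0.47 (limma P = 0.0563), and SREBF1 O13456 gave -0.58 (limma P = 0.0004) and -0.72 (limma P = 1.98e-05). MLXIPL had its larger value in high RFI pigs, -0.28 (limma P = 0.0136), against -0.10 (limma P = 0.358).

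The difference between lines in the diet effect was itself tested. No member probe had an interaction P under 0.05 (0 of 36), where 2.37% of all tested probes had one, and none of any gene passed P-BH. For SCD the interaction was -0.62 (limma P = 0.202), with an interval from -1.58 to 0.34, and for PNPLA3 it was -1.06 (limma P = 0.262), with an interval from -2.93 to 0.82. The diet effects in the lines were therefore not shown to differ. Read the other way, the line effect within HF pigs was called for 0 of 36 member probes, where 3.41% of all tested probes were called. There 31 of 36 probes, and 7 of 10 representative probes, were below 0. Within LF pigs it was called for 0 of 36, where 3.84% were, and 32 of 36 probes and 8 of 10 representative probes were above 0. In each of these comparisons 1 member probe had an unadjusted P under 0.05: ME1 A_72_P306288 in HF pigs (-0.72, limma P = 0.0166) and ELOVL6 O1689 in LF pigs (0.53, limma P = 0.0226).

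Most of the variation of these genes lay between pigs of a group. PNPLA3 ran from 0.25 to 7.21 over the 48 pigs, a 124.5-fold range, and its SD within groups of 1.66 lay at percentile 99.8 of all tested probes. SCD had a 14.25-fold range and an SD of 0.85 (percentile 96.8), FASN a 13.69-fold range and an SD of 0.87 (percentile 97.0), and ELOVL6 an 11.21-fold range and an SD of 0.81 (percentile 96.1). The median SD over all tested probes was 0.28. SREBF1 (A_72_P326973), with a 1.884-fold range and an SD of 0.19 (percentile 18.5), and MLXIPL, with a 2.245-fold range and an SD of 0.27 (percentile 45.8), varied far less than the enzymes. ACLY, ACACA, GPAM and ME1 lay between, with SDs from 0.59 to 0.71. The SREBF1 probe O13456 ran from 1.42 to 3.82 with an SD of 0.38 (percentile 69.6), so the spread of SREBF1 depended on the probe read.

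The enzymes varied together over pigs. With group means removed, FASN and SCD correlated with r = 0.92 (Spearman's rho 0.93, n = 48), and FASN and PNPLA3 with r = 0.92 (rho 0.90); both had a permutation P of 1e-05, the smallest that 100000 resamples can give, and a P-BH of 3.46e-05. ACLY, ACACA, FASN, SCD, GPAM and PNPLA3 all correlated with each other, with r from 0.55 (ACACA and GPAM) to 0.92. Over all 45 pairs of members, 24 passed P-BH under 5% in the 2-sided permutation test, 23 of them positive, and the median r was 0.32. For scale, r with FASN over all tested probes had a 95th percentile of 0.40 and a 99th of 0.59. The first component of the 10 genes carried 52.27% of their variance.

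Some members stood outside this block. ELOVL6 had negative r with all 6 of its genes, from -0.19 with ACLY to -0.44 with GPAM, the last being the negative pair that passed (P-BH = 0.00458). ME1 passed with ACACA (r = 0.43, P-BH = 0.00637) and PNPLA3 (r = 0.33, P-BH = 0.0411) and not with FASN (r = 0.28, P-BH = 0.0955). Its r with FASN was 0.72 on scan day 1 and 0.09 on scan day 2, and 0.50 in the low and 0.11 in the high RFI line, differences that were not tested. MLXIPL passed with all 6, most with FASN (r = 0.48, P-BH = 0.00205), with r = 0.20 in the low RFI line and 0.71 in the high RFI line, a difference that was not tested. SREBF1 (A_72_P326973) passed with none of the enzymes: its r with FASN was 0.18 (P-BH = 0.306) and with ACACA 0.06 (P-BH = 0.761). The r of A_72_P326973 with FASN was 0.45 in HF pigs and -0.09 in LF pigs, a difference that was not tested, 0.33 and 0.06 on scan days 1 and 2, and 0.31 (P-BH = 0.106) without the 7 pigs lowest in FASN. O13456 had r = 0.05 with FASN and r = 0.24 with ACACA.

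**Figure D4:**
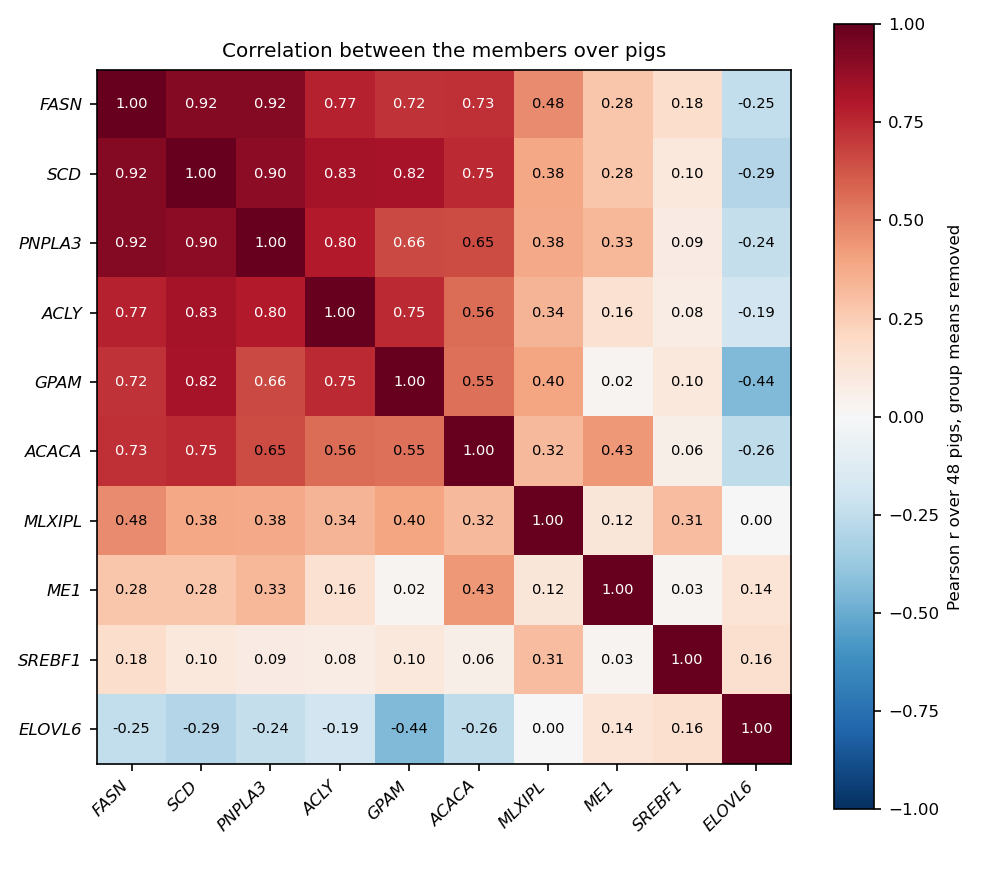
Pearson r between the representative probes of the 10 genes over 48 pigs after removal of group means. FASN, SCD, PNPLA3, ACLY, GPAM and ACACA form a block with r from 0.55 to 0.92, while SREBF1 and ELOVL6 lie outside it.

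In 7 pigs FASN lay more than 1 log2 unit below the mean of the group, 4 of the low and 3 of the high RFI line, 3 fed HF and 4 fed LF. In the other 41 pigs FASN still correlated with SCD (r = 0.88), PNPLA3 (r = 0.81), ACACA (r = 0.77), ACLY (r = 0.68) and GPAM (r = 0.64), each with a permutation P-BH of 4.5e-05, and 16 of the 45 pairs passed. For MLXIPL, r with FASN was 0.36 there (P-BH = 0.0520). Leaving out pigs by their FASN value narrows its range, which lowers r by construction. Without the 2 pigs farthest from the FASN median, r was 0.90 with SCD and 0.91 with PNPLA3. Within scan days, r of FASN and SCD was 0.86 on day 1 and 0.96 on day 2.

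**Figure D5:**
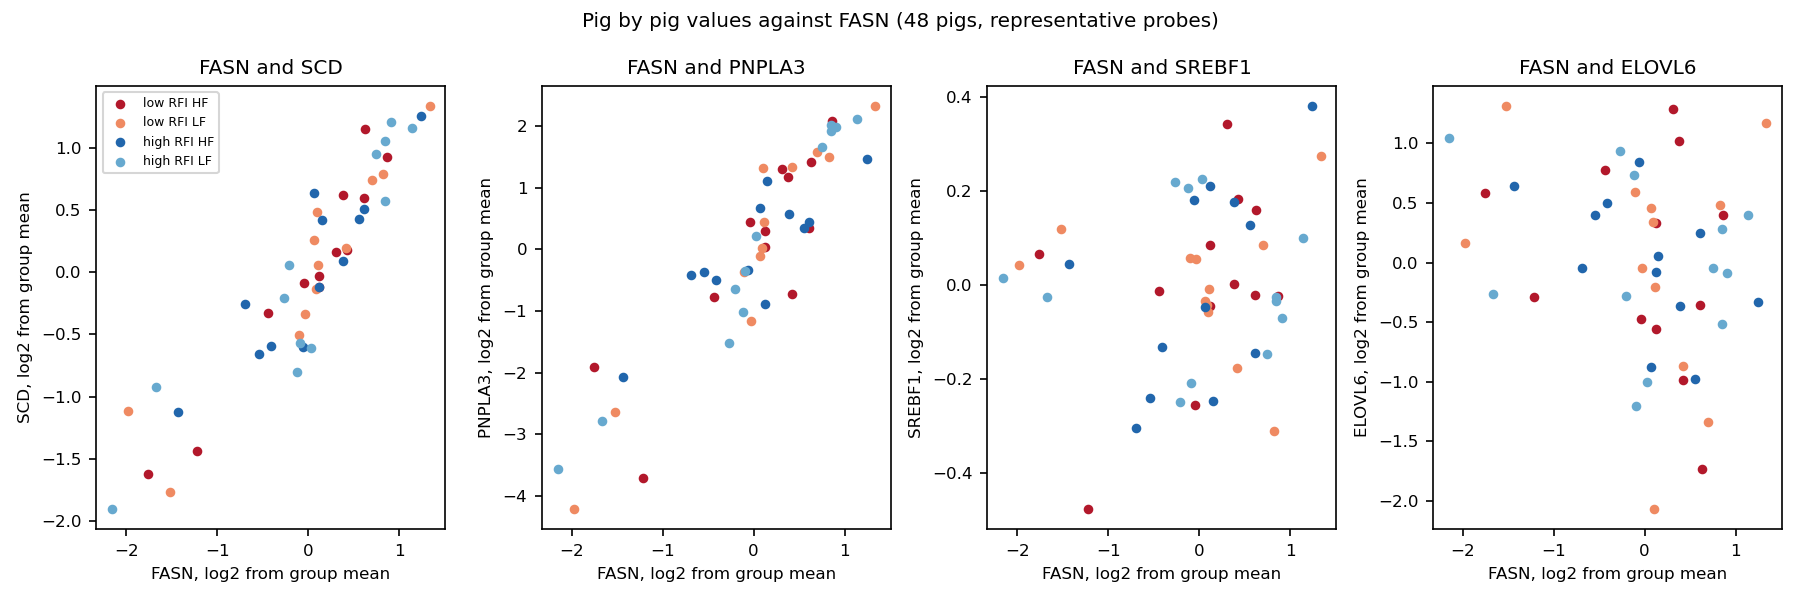
SCD, PNPLA3, SREBF1 and ELOVL6 (representative probes) against FASN, each as log2 distance from the group mean, 1 point per pig for 48 pigs. SCD and PNPLA3 follow FASN (r = 0.92 for both), also apart from the 7 pigs at the lower left, whereas r was 0.18 for SREBF1 and -0.25 for ELOVL6, neither past the threshold.

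The named genes outside the members whose pattern was most like that of FASN over the 48 pigs were ACSS2, which makes acetyl-CoA from acetate (r = 0.93), and 4 genes of sterol synthesis, HMGCS1 (r = 0.92), FDPS (r = 0.89), MSMO1 (r = 0.89) and IDI1 (r = 0.88). None of them was called for diet, with differences of -0.05 (limma P = 0.868), 0.23 (limma P = 0.460), 0.33 (limma P = 0.114), 0.12 (limma P = 0.459) and 0.09 (limma P = 0.599). Those most like SREBF1 A_72_P326973 were ADAT3 (r = 0.90), NRTN (r = 0.90), SGEF (r = 0.88), HGS (r = 0.87) and TP23 (r = 0.87), and their probes held between 53.33% and 76.67% G and C. Likeness is a description over these arrays.

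Among the other genes of lipogenic control, 13 were tested. For line, 2 were called lower in low RFI pigs: MLX, the partner protein of ChREBP (-0.48 ± 0.10, limma P = 3.12e-05, P-BH = 0.00267), and INSIG1, which holds SREBP precursors in the endoplasmic reticulum (-0.17 ± 0.06, limma P = 0.00796). For diet, 2 were called lower in HF: SCAP, the escort of SREBP (-0.16 ± 0.06, limma P = 0.00835), and USF1, a factor that binds lipogenic promoters (-0.20 ± 0.07, limma P = 0.00792). The calls of MLX and INSIG1 each rested on 1 of 2 tested probes, and on scan day 2 alone MLX did not pass (-0.36, limma P = 0.0186). USF1 was called by 2 of 5 probes and SCAP by 2 of 2. The call of INSIG1 was lost without any of 22 single pigs, and those of SCAP and USF1 without any of 23. With slide as a fixed block, INSIG1 (limma P = 0.0111) and SCAP (limma P = 0.0104) were no longer called. With normexp background correction, neither INSIG1 (limma P = 0.0321) nor SCAP (limma P = 0.0256) was called. INSIG1 also did not pass on median signals without background subtraction (limma P = 0.021) or on the deposited values (limma P = 0.0268). SCAP did not pass without the filter on dim probes (limma P = 0.0152), nor USF1 with centring on the 75th percentile (limma P = 0.0111).

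Among 10 genes of glucose entry and glycolysis, GCKR, a regulatory protein of hepatic glucose use, was lower in HF (-0.22 ± 0.07, limma P = 0.00341, P-BH = 0.137) and higher in low RFI pigs (0.22 ± 0.07, limma P = 0.00369). CS, the citrate synthase of mitochondria, was lower in HF (-0.21 ± 0.05, limma P = 0.000348, P-BH = 0.0577). The median diet effect of this list was -0.15, against -0.02 for all genes.

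The remaining lists held few calls. None of 9 genes that supply acetyl-CoA and NADPH was called in limma, for line (0 with P under 0.05) or diet (1 with P under 0.05). Of 8 genes of malonyl-CoA control, PRKAB2, a subunit of the AMP-activated kinase, was lower in HF (-0.19, limma P = 0.00308). Of 9 genes of elongation and desaturation, the desaturase FADS2 was higher in HF (0.47, limma P = 0.00553), the acyl-CoA synthetase ACSL1 lower in HF (-0.36, limma P = 0.00814, lost without any of 21 single pigs), and ACSL3 lower in low RFI pigs (-0.76 ± 0.15, limma P = 4.65e-06, P-BH = 0.000714), by each of its 4 probes. The ACSL1 call was also lost with quantile normalization (limma P = 0.02) and with normexp background correction (limma P = 0.0134). It was lost too on median signals without background subtraction and without the filter on dim probes (limma P = 0.0106 for both). Of 11 genes of glycerolipid assembly and breakdown, the triglyceride lipase PNPLA2 was higher in HF (0.33, limma P = 0.000972). With 24 pigs on each scan day, the list genes named with a call by their representative probe, MLX and APOA1 included, kept their direction on both days, but none of them passed P under 0.01 on day 2, ACSL3 with -0.53 (limma P = 0.0250) among them, and on day 1 only MLX, ACSL3 and PNPLA2 did.

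Markers of cell types were read beside these results. Hepatocyte markers summed to between 7105 and 11840 times the array median in every pig, with group medians from 9538 to 10290; of 9 tested, 1 was called for line (APOA1, 0.15, limma P = 0.00777, by each of 4 probes, a call lost without any of 19 single pigs) and 0 for diet by the representative probe, where 4 had an unadjusted P under 0.05, with a median diet effect of -0.11 and all 9 below 0. Of the 21 probes of ALB, the albumin gene, 7 were called for diet, though its representative probe was not (-0.13, limma P = 0.0339). Adipocyte markers summed to between 11.13 and 48.24, and 0 of 6 were called in limma, with 1 at an unadjusted P under 0.05 for line and 1 for diet. That sum was mostly CIDEC, with a mean log2 value of 4.13, against 0.19 for LEP and less for the others. It is therefore not read as a measure of fat tissue in the samples. By representative probe, in limma, 0 of 7 macrophage, 0 of 8 endothelial and stellate, and 0 of 6 T and NK cell markers were called for line or diet, with 3, 2 and 0 at an unadjusted P under 0.05 for diet and 4, 0 and 0 for line. All 7 macrophage markers were below 0 for line, with a median of -0.19 against 0.01 for all genes, and VSIG4 was called for line by 2 of its 7 probes and C1QA by 1 of 2. The median diet effect was 0.13 for macrophage and 0.11 for endothelial and stellate markers; the part of cell makeup in the effects on the lipogenic genes was not tested.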

How the data were processed

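Liver RNA of 48 pigs was hybridised with Cy3 to a custom porcine 60-mer array, 1 array per pig. The deposited scanner files hold background-subtracted processed intensity per spot from Feature Extraction 10.7.3.1 (GE1_107_Sep09); the authors also deposited a table of median-centred log2 values, made in R 2.10.0 per the submitters' processing notes, with 37378 probes, used as an alternative. No genome build was used here.

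Processed intensities of spots other than controls were log2-transformed, 483 outlier-flagged spots were set missing, spots of a probe were averaged, and the probes kept, those that exceeded background clearly (the scanner software's own flag) on 12 arrays or more, were centred on each array's median. Line, diet and their interaction were fitted with limma 3.58.1 (lmFit, eBayes) in R 4.3.3 over all 45236 tested probes. Scripts were tested on simulated data. Correlations used 2-sided permutation with 100000 resamples. Precision is limited by the number of arrays, and with 1 array per pig the spread holds animal and technical error. The genes named are the 10 members, the called genes of each list (at most 4 for each effect by size) and the 5 genes most like FASN and SREBF1. The members and lists were chosen with earlier results of these data known. Alternatives covered centring, normalization, background correction, filter, slide, scan day, probe choice, P-BH and single pigs left out. List genes without a tested probe, and promoter motifs, were not analysed here. Some called genes of the lists and some probe sequences are not reported here.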

Additional observations from a re-analysis of the deposited data

Results flagged for a closer look

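The diet effect was compared between lines in the 109 list genes tested. Of these, 4 (3.67%) had an interaction P under 0.05 in limma, against 2.37% of all tested probes, and 0 passed Benjamini-Hochberg adjustment over all probes. For FADS2 the diet effect was 0.14 in low RFI pigs and 0.80 in high RFI pigs, an interaction of -0.66 ± 0.32 (SE, 12 pigs per group, limma P = 0.0458). For ACSL3 it was -0.48 in low RFI and 0.12 in high RFI pigs, an interaction of -0.60 ± 0.29 (limma P = 0.0476). STARD4, a sterol carrier, gave -0.17 and 0.36, an interaction of -0.53 ± 0.24 (limma P = 0.0297), and the adipocyte marker FABP4 gave -0.55 and 0.22, an interaction of -0.77 ± 0.37 (limma P = 0.0427). STARD4 and FABP4 are named here after their values were seen.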

How the results depend on the processing

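Of the values recomputed under settings other than leaving out a pig, 1047 kept direction and side of the threshold, 18 reversed, 9 came past the threshold, 72 lost it and 9 moved; with 1 pig left out 2911 were kept, 35 reversed, 17 came past, 149 lost it and 8 moved. The cause was not tested. The diet effect of SREBF1 O13456 kept its call under every setting run. The line effect of FASN was -0.0087 on median signals without background subtraction and -0.0055 on the deposited log2 values. On scan day 1 alone, the diet calls were 2, the interaction count 1, MLXIPL by line 0.0725, ACLY by diet 0.0096, ACACA by diet -0.48 and ELOVL6 by diet in high RFI pigs -0.0765. On scan day 2 alone, the line calls were 1, the diet calls 1, the line effects of ACACA -0.0024, FASN -0.17, ELOVL6 0.24 and ME1 0.0292, ACACA by diet -0.53, and the diet effects in high RFI pigs of SREBF1 0.0055, ACLY -0.054, SCD 0.0102 and PNPLA3 -0.0267. With the mean over a gene's probes, the line effects of ACACA and FASN were -0.0358 and -0.0453, the diet effect of SREBF1 was -0.30 (-0.31 in low RFI, -0.29 in high RFI pigs) and that of ACACA in low RFI pigs -0.65. With the probe of smallest P, which favours a call by its construction, the line effects of ACACA, FASN and ELOVL6 were -0.15, -0.16 and 0.27, the diet effect of SREBF1 was -0.65 (-0.58 in low RFI, -0.72 in high RFI pigs), and those of ACACA and SCD in low RFI pigs were -0.75 and -0.96. At P-BH under 5% the diet calls were 1, and ACACA at -0.50 was no longer called.

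With each pig left out in turn, the diet calls ran from 4 to 17, the line calls from 0 to 1 and the interaction count from 0 to 1. The line effect of FASN ran from -0.0948 to 0.0931, the diet effect of MLXIPL from -0.21 to -0.17 and that of SCD from -0.65 to -0.49. In high RFI pigs the diet effect of ACLY ran from -0.0307 to 0.15, MLXIPL from -0.32 to -0.23 and PNPLA3 from -0.20 to 0.31; in low RFI pigs ME1 ran from -0.23 to 0.0155 and SCD from -1.03 to -0.73. The setting without the 7 pigs lowest in FASN was chosen after seeing the data. The choices of the mean over probes and of the smallest P give no count of probes, and the model without interaction gives no value within lines. No paired analysis was possible because the columns carry no replicate numbers that link pigs across groups.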
